A study of Homo sapiens with 4 samples.

Results

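The kinesin motor genes were taken as the protein-coding genes whose symbol is KIF followed by a number, which gave 39 of the 19894 protein-coding genes among 58560 genes summed. They were divided by textbook role into 13 mitotic kinesins, 15 transport kinesins and 11 others. RNA was sequenced from A549, an established human lung adenocarcinoma line of alveolar epithelial origin, in 4 bulk libraries. The 2 control libraries came from cells whose labels name no treatment. The 2 deprived libraries came from cells rinsed in buffered saline and kept in DMEM without glutamine, with a label of 24 hours on the first and of 25 hours on the second, where the protocol text gives 24 hours for both. All cells were grown in DMEM with serum, and the labels do not say that replicates are separate cultures, so p-values measure only the spread between these libraries. They held 101496318 and 101982373 (control) and 123414592 and 120425759 (deprived) estimated transcript counts. Levels in CPM are counts scaled to the library total after its correction for RNA composition by the TMM method. Epithelial markers (EPCAM, KRT8, KRT18, KRT19, CDH1) summed to 7570 and 7681 CPM in control and to 2019 and 1730 in deprived cells, all 5 called lower. The 6 fibroblast and 5 endothelial markers were each under 1 CPM in every library, although PECAM1 and CDH5 were called lower. The 6 alveolar type II markers summed to 42.03 and 41.9 CPM in control and to 31.3 and 32.6 in deprived cells. Of these, ABCA3 was called lower (-0.55) and NKX2-1 and LAMP3 higher (4.26 and 3.47), SFTPA1 was at 0 in every library, and 4 of 6 were under 1 CPM in all libraries. The 6 blood markers summed to 26.6 and 12.72 CPM in control and to 0.756 and 0.876 in deprived cells, with PTPRC and CD3E under 1 CPM throughout. CD14 was called lower, from 13.2 and 12.4 CPM in control to 0.498 and 0.525 CPM in deprived cells. HBB and LYZ were also called lower, but lay mostly in control replicate 1. There HBB was at 11.6 and LYZ at 1.29 CPM, against 0.227 and 0.109 CPM in control replicate 2. The part of these marker differences in the results below was not tested.

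Kinesins are motors that turn ATP hydrolysis into movement along microtubules or into the taking apart of microtubule ends. Mitotic kinesins build the spindle, position chromosomes and organise the midzone where the cell divides, and the RNA of many of them rises toward G2 and mitosis, when the MuvB complex with B-MYB and FOXM1 acts at promoter elements called CHR, after repression earlier in the cycle by the related DREAM complex. Transport kinesins carry vesicles, endosomes, mitochondria and ciliary cargo and are made in resting cells as well.

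The bases just upstream of 7 kinesin start sites are printed because the best known CHR core, TTTGAA, and the CCAAT box bound by NF-Y mark the promoters of many genes that peak in G2 and mitosis. RefSeq promoter windows (GRCh38.p14, 250 bases before the start and 50 from it on) were found for 33 of the 39 genes. Each line gives the 100 bases before the RefSeq start, 5′ to 3′ on the gene's strand, with capitals marking TTTGAA, its variant TTTAAA and CCAAT on either strand; the variant was added after the data were seen. The stretches lie at chr5:138179012-138179111, chr15:69414249-69414348, chr10:92593030-92593129, chr3:44761694-44761793 and chrX:70290004-70290103 on the plus strand and at chr11:28108157-28108256 and chr2:25982498-25982597 on the minus strand.
KIF20A: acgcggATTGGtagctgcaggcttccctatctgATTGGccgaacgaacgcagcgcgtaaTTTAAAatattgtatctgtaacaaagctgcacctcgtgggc
KIF23: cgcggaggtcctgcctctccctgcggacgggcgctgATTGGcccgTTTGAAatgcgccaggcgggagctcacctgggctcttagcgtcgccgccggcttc
KIF11: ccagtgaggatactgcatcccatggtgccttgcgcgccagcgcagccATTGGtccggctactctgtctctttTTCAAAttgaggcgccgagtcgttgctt
KIF15: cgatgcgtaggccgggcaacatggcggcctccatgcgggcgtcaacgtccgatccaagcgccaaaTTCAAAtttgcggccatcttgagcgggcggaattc
KIF4A: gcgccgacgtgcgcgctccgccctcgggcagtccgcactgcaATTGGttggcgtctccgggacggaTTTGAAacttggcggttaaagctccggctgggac
KIF18A: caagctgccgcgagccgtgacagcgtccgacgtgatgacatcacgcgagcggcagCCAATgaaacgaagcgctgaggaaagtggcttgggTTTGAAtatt
KIF3C: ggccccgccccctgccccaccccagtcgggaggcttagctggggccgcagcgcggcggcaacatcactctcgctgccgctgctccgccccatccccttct
TTTGAA was found in the window of 9 of 13 mitotic kinesins, 1 of 12 transport kinesins (KIF5B) and 0 of 8 others, against 15.2% of all 35116 windows. CCAAT was found for 10 of 13 mitotic, 4 of 12 transport and 3 of 8 other kinesins, against 34.6% of windows. A kinesin with several windows was counted if any of them matched, whereas the shares of all windows are per window. Both motifs stood together in 8 of 13 mitotic kinesins and in 5.9% of windows. KIF20A has no TTTGAA but holds TTTAAA, a match in 12.2% of windows, beginning 41 bases before its start. TTTAAA was found for 4 of 13 mitotic kinesins (KIF14, KIF20A, KIF23 and KIF2C), 1 of 12 transport kinesins (KIF16B) and 0 of 8 others. The stretches of KIF20A, KIF23, KIF11, KIF15, KIF4A and KIF18A have a match and that of KIF3C has none. These 7 genes were picked singly, so the contrast between their stretches does not describe the classes. Of the mitotic kinesins not printed, KIF14, KIF18B, KIF20B and KIF4B have TTTGAA after the start, and KIF22, KIF2B and KIF2C have no TTTGAA. The TTTAAA of KIF2C begins 3 bases before its start. Of the transport kinesins not printed, KIF1B, KIF3B, KIF5B and KIF5C have CCAAT. These are letter matches in a window and say nothing of binding.

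Kinesin genes moved in both directions after glutamine deprivation, with decreases outnumbering increases among mitotic kinesins and the reverse among transport kinesins, the latter under TMM scaling but not with library size only. Of the 39, 36 passed the filter on low counts, and 11 rose and 13 fell in edgeR's quasi-likelihood fit (p-values adjusted by Benjamini-Hochberg over all genes), 24 of 36 in all, where 49.6% of all 24527 tested genes were called. Of 12 tested mitotic kinesins, 3 rose and 7 fell, and the log2 fold changes had a median of -0.40. Of 14 tested transport kinesins, 7 rose, 2 fell and 5 were not called, with a median of 0.23. Over all tested genes 25.2% rose and 24.4% fell, and the median was -0.06. Among the other kinesins 1 rose and 4 fell of 10 tested (median -1.04). Values in CPM are scaled by TMM throughout, and changes are log2 fold changes of deprived over control cells ± SE.

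The scaling sets how many kinesins count as raised. When only library size was used, the median of all genes went to -0.40, and 17.0% of all genes rose and 34.9% fell. Then 4 kinesins rose and 18 fell, with 1 and 9 among the mitotic and 2 and 3 among the transport kinesins. The transport median then turned to -0.11 and the mitotic median went to -0.74. A change of scaling shifts all log2 fold changes by nearly the same amount, so the gap between these medians stays by construction. It was -0.63 with TMM and -0.63 with library size only, which is no test of the scaling. Over all settings tried the gap ran from -0.73 to -0.53. The KIF18A, KIF1A, KIF17 and KIF26B increases were called under both scalings. Bulk RNA cannot tell fewer dividing cells from less RNA per cell.

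**Figure D1:**
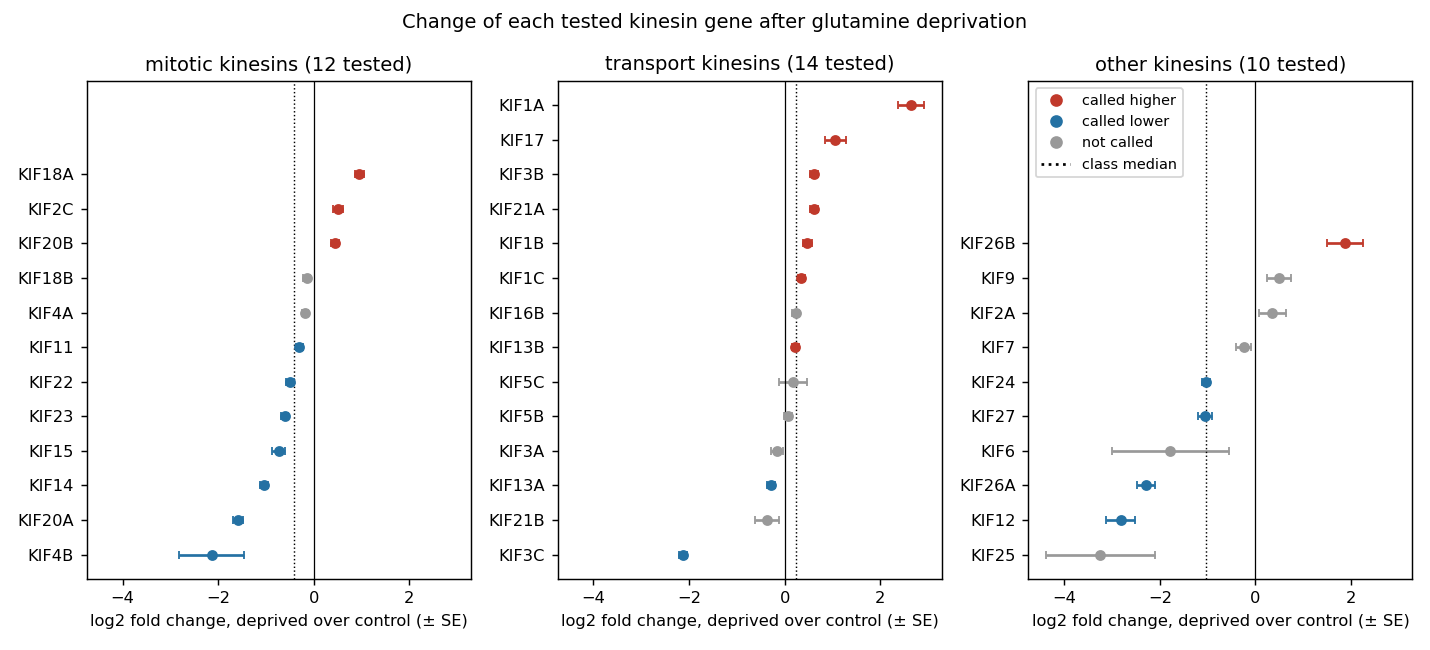
Log2 fold change (deprived over control, TMM scaling) ± SE of the 36 tested kinesins in 3 panels by class; red points were called higher, blue lower, grey not called, and the dotted line is the class median (-0.40, 0.23 and -1.04). KIF3C at -2.13 lies apart from the other transport kinesins, and KIF18A at 0.95 is the highest mitotic kinesin.

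Kinesins of the central spindle and cytokinesis included the largest mitotic decreases apart from the scarce KIF4B: 3 of 4 fell and 1 rose. KIF20A (MKLP2), which brings the chromosomal passenger complex to the midzone, was at 110.0 and 118 CPM in control and 41.6 and 34.6 CPM in deprived cells. Both deprived values lie far below both controls, a change of -1.58 ± 0.11 (adjusted p = 9.08e-05). The gene (ENSG00000112984, chromosome 5, 138178719 to 138187715) shares 132 exon bases with BRD8 and 68 with CDC23 on the other strand, 3.34% and 1.72% of its exon bases. KIF14, which recruits citron kinase to the midbody, was at 70.5 and 71.99 CPM in control and 36.05 and 33.1 CPM in deprived cells, with no overlap (-1.04 ± 0.08, adjusted p = 0.000118). KIF23 (MKLP1), the motor of centralspindlin, went from 107 and 116 to 74.4 and 71.1 CPM (-0.61 ± 0.08, adjusted p = 0.000992). KIF20B, a midzone and abscission motor, went the other way. It was at 50.1 and 49.0 CPM in control and 71.1 and 63.6 CPM in deprived cells (0.44 ± 0.08, adjusted p = 0.00511), but was not called when scaled by library size only (0.10, adjusted p = 0.289).

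The pair of motors that push spindle poles apart both fell. KIF11 (Eg5), the sliding motor that makes the spindle bipolar, was at 102 and 111 CPM in control and 86.2 and 86.3 CPM in deprived cells. The decrease was small (-0.30 ± 0.07, adjusted p = 0.0155) and was not called without control replicate 2 (adjusted p = 0.0898). KIF15, which can stand in for KIF11 and is held on the spindle by TPX2, had the lower level per length (4.16 against 44.4 TPM in control cells, where TPM is counts divided by transcript length and scaled to a fixed library total) and was at 9.13 and 9.82 against 5.53 and 5.88 CPM (-0.73 ± 0.14, adjusted p = 0.00584).

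Of the 3 chromokinesins, which bind chromosome arms, 2 fell. KIF22 (Kid), the source of the polar ejection force, was at 118 and 111 CPM in control and 84.5 and 77.05 CPM in deprived cells (-0.50 ± 0.08, adjusted p = 0.00281). KIF4A, which works with PRC1 in shaping the midzone, was at 77.6 and 78.1 CPM against 70.9 and 66.5 CPM, without overlap but not called (-0.18 ± 0.07, adjusted p = 0.0755). It was called lower with library size only (-0.52, adjusted p = 0.00102), with upper-quartile factors, with the stricter filter and with protein-coding transcripts only.

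KIF4B, the intronless copy of KIF4A, needs its sequence beside its value. The coding sequences of KIF4A and KIF4B aligned at 95.7% identity in the GENCODE transcripts, and 14.0% of the 50-base windows of the KIF4B transcript occur unchanged in that of KIF4A. The 72 bases around the codons of the ATP-binding P-loop, coding positions 238 to 309 of KIF4A, are printed with the base that differs in capitals.
KIF4A: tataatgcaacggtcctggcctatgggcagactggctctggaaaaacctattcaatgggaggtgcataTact
KIF4B: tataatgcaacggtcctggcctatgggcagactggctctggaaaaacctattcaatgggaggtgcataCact
With 1 difference in 72 bases, short reads from this stretch could be given to either gene. KIF4B had 20 and 27 counts in control and 4 and 6 in deprived cells, and its call as lower (-2.14 ± 0.69, adjusted p = 0.0436) was lost without each replicate in turn (adjusted p from 0.0880 to 0.320) and with DESeq2 (adjusted p = 0.110). It adds nothing firm to the mitotic count, which was 3 higher and 6 lower of 11 with members of at least 1 CPM on average (median -0.30).

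Of the 3 tested mitotic kinesins that shorten microtubule ends, 2 rose and 1 was not called, or 1 rose and 1 fell with library size only. KIF18A, a kinesin-8 that calms chromosome movements at the metaphase plate, was at 76.9 and 85.6 CPM in control and 165 and 149.8 CPM in deprived cells. Both deprived libraries were well above the controls (0.95 ± 0.09, adjusted p = 0.000311), and the call held under every alternative tried, with log2 fold changes from 0.62 to 1.04. The gene (ENSG00000121621, chromosome 11, 28020620 to 28108308) shares 61 bases, 1.31% of its exon bases, with METTL15 on the other strand, which also rose (37.1 and 40.8 to 99.7 and 95.04 CPM). How far reads of that overlap enter KIF18A was not tested. KIF2C (MCAK), which frees wrongly attached kinetochores, was at 55.3 and 56.3 CPM against 85.8 and 72.8 CPM (0.51 ± 0.09, adjusted p = 0.00586), and was not called when scaled by library size only (0.17, adjusted p = 0.124). KIF18B, which trims astral microtubules, was at 39.8 and 41.4 against 38.2 and 35.1 CPM and was not called (-0.15 ± 0.08, adjusted p = 0.171). It was called lower with library size only (-0.48), upper-quartile factors and the stricter filter. KIF2B, a spindle depolymerase, had 5 counts in control replicate 1 and 0 in the other libraries, and was not tested.

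KIF20A and KIF18A, both mitotic, thus moved apart. In counts, KIF20A over KIF18A was 1.43 and 1.38 in control cells and 0.252 and 0.231 in deprived cells, a ratio within each library that no scaling changes.

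**Figure D2:**
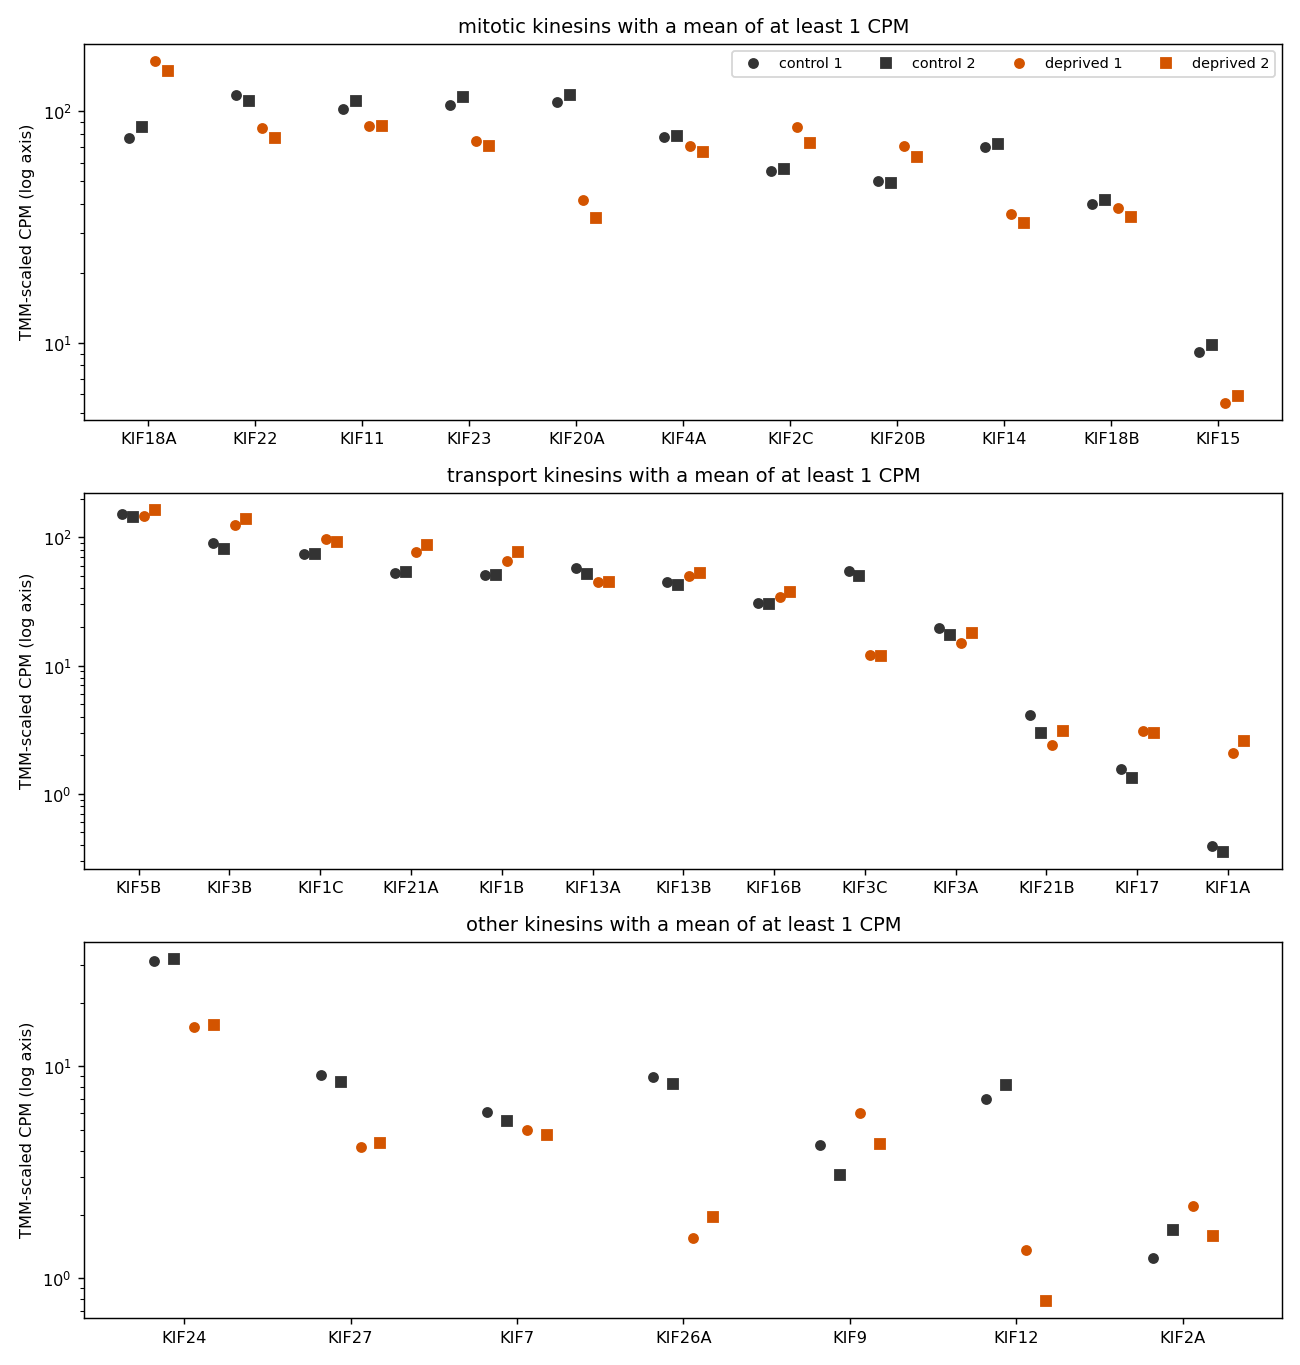
TMM-scaled CPM on a log axis of kinesins with a mean of at least 1 CPM, in panels of mitotic, transport and other kinesins; each point is 1 library, black for control and orange for deprived. KIF20A and KIF14 lie lower and KIF18A higher in both deprived libraries, and KIF3C drops from 54.6 and 50.4 to 12.2 and 11.8 CPM.

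Among transport kinesins the 1 decrease of more than 2-fold was in kinesin-2, where 2 members rose and 1 fell (1 rose and 2 fell with library size only). KIF3C, a kinesin-2 motor that pairs with KIF3A, was at 54.6 and 50.4 CPM in control and 12.2 and 11.8 CPM in deprived cells. The fall of 4.38-fold (-2.13 ± 0.08, adjusted p = 1.85e-05; ENSG00000084731, chromosome 2, 25926596 to 25982749) was called under every alternative, from -2.47 to -2.08. KIF3B, the other partner of KIF3A and a motor of intraflagellar transport, was at 90.6 and 81.1 CPM against 125 and 138.4 CPM, a rise (0.62 ± 0.09, adjusted p = 0.00206) not called with library size only (0.28, adjusted p = 0.0792). KIF3A itself was at 19.6 and 17.4 against 14.9 and 18.1 CPM, with overlapping groups (-0.16 ± 0.13, adjusted p = 0.345), and was called lower with library size only (-0.50, adjusted p = 0.0354). Within libraries, KIF3C over KIF3B in TPM was 0.814 and 0.845 in control and 0.151 and 0.134 in deprived cells. KIF17, a kinesin-2 of dendrites and cilia, was scarce, at 1.58 and 1.33 CPM against 3.07 and 2.99 CPM (1.06 ± 0.22, adjusted p = 0.00842). Without control replicate 2 its adjusted p was 0.0549. KIFAP3, the subunit that links KIF3 motors to cargo, rose from 31.4 and 34.7 to 57.6 and 56.4 CPM (0.79 ± 0.08).

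Of 6 kinesin-3 motors, which carry vesicles and endosomes, 4 rose and 1 fell, against 1 and 1 with library size only. KIF1C, an integrin and mRNA carrier, was at 73.8 and 74.8 CPM in control and 97.3 and 92.2 CPM in deprived cells (0.35 ± 0.07, adjusted p = 0.00679). KIF1B, which moves mitochondria and vesicle precursors, was at 50.7 and 51.4 CPM against 65.01 and 76.7 CPM (0.47 ± 0.09, adjusted p = 0.00770). Neither call held with library size only (0.01 and 0.14). KIF1A, the neuronal carrier of synaptic vesicle precursors, rose most of all kinesins tested, from 45 and 39 counts to 218 and 282 (0.394 and 0.354 to 2.09 and 2.60 CPM; 2.64 ± 0.28, adjusted p = 0.000498), and stayed at a low level.

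The endosomal kinesin-3 motors had small log2 fold changes. KIF13A, of recycling endosomes, was at 58.0 and 51.6 CPM against 44.8 and 44.9 CPM (-0.29 ± 0.08, adjusted p = 0.0294). That call was lost without control replicate 1, deprived replicate 1 or deprived replicate 2 (adjusted p = 0.175, 0.0691 and 0.0713). KIF13B was at 45.2 and 42.6 against 50.3 and 52.4 CPM (0.23 ± 0.07, adjusted p = 0.0430), a call lost without any 1 of the replicates (adjusted p from 0.0540 to 0.289) and turned to -0.11 with library size only. KIF16B, of early endosomes, was at 30.6 and 30.5 against 34.4 and 37.3 CPM and just missed the threshold (0.23 ± 0.08, adjusted p = 0.0503). It was called without deprived replicate 1 (adjusted p = 0.0380), with RLE factors and with DESeq2, and turned to -0.10 with library size only.

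KIF5B, the conventional kinesin heavy chain found in most tissues, had the highest TPM of the transport kinesins in control cells (51.2 ± 6.39, SD, n = 2) and was not called. It was at 152 and 144 CPM in control and 147 and 163 CPM in deprived cells, with overlapping groups (0.07 ± 0.08, adjusted p = 0.535; -0.27 with library size only and -0.04 with upper-quartile factors). Its neuronal relatives were near absent: KIF5C lay between 0.635 and 0.823 CPM in the 4 libraries (0.17 ± 0.30; -0.17 with library size only), and KIF5A had 4 counts in 1 library and was not tested. KIF21A, a kinesin-4 that restrains microtubule growth at the cortex, was at 52.8 and 54.2 CPM against 76.3 and 86.7 CPM (0.61 ± 0.08, adjusted p = 0.00168; 0.27, adjusted p = 0.0646, with library size only). KIF21B, its relative of neurons and lymphocytes, lay between 2.42 and 4.11 CPM with overlapping groups and was not called. Moving KIF2A to the mitotic and leaving KIF21A and KIF21B out of the transport kinesins gave 3 higher and 7 lower of 13, and 6 higher and 2 lower of 12.

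Among kinesins outside both classes, KIF12, KIF24, KIF26A and KIF27 fell by more than 2-fold. KIF12, a kinesin of kidney and liver epithelia, was at 7.03 and 8.12 CPM in control and 1.36 and 0.783 CPM in deprived cells (-2.82 ± 0.30, adjusted p = 0.000533). KIF26A, a kinesin-11 with no motor activity that dampens GDNF signalling, was at 8.87 and 8.21 against 1.55 and 1.95 CPM (-2.28 ± 0.19, adjusted p = 0.000202). Its paralog KIF26B, which acts in kidney development and Wnt5a signalling, rose from 27 and 28 counts to 74 and 119 (1.88 ± 0.38, adjusted p = 0.00788), so the pair moved in opposite directions, both at low levels. KIF24, a centriolar depolymerase that holds back cilium assembly, was at 31.5 and 32.0 CPM against 15.3 and 15.7 CPM (-1.03 ± 0.08, adjusted p = 0.000145). KIF27, a relative of the Hedgehog regulator KIF7, was at 9.12 and 8.42 against 4.16 and 4.34 CPM (-1.05 ± 0.15, adjusted p = 0.00166). The decreases of KIF12, KIF24, KIF26A and KIF27 were called under every alternative tried.

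The remaining kinesins gave no firm call. KIF7, the kinesin at the cilium tip, was at 6.06 and 5.51 against 4.99 and 4.76 CPM (-0.25 ± 0.16, adjusted p = 0.239; 0.0275 with library size only) and shares 11.8% of its exon bases with TICRR on the other strand. KIF9, of motile cilia, was at 4.24 and 3.08 against 6.05 and 4.30 CPM (0.50 ± 0.25, adjusted p = 0.153), and shares 14.9% with its antisense gene KIF9-AS1, which rose from 2.54 and 2.44 to 4.91 and 6.87 CPM (adjusted p = 0.00465). KIF9 also shares 3.04% with KLHL18 on the other strand, which rose from 33.5 and 30.3 to 114 and 117 CPM (adjusted p = 2.36e-05). How far reads of these overlaps enter KIF9 was not tested. KIF25 had 24 and 18 counts in control and 0 and 4 in deprived cells (adjusted p = 0.0574; 0.0395 with library size only, 0.0302 with limma and 0.0194 without deprived replicate 2), while KIF25-AS1 fell from 176 and 122 counts to 0 and 8 (adjusted p = 0.00432). KIF6 had 34 and 29 counts against 17 and 0 (adjusted p = 0.280; 0.00593 without deprived replicate 1, which held all of its deprived counts), and KIF19 had 4 counts in control replicate 1 and 0 elsewhere. KIF2A, a depolymerase of spindle poles and neurites, was at 1.25 and 1.70 against 2.20 and 1.58 CPM, with overlapping groups. Of its control counts 43.3% lay on a retained-intron transcript (KIF2A-204), and transcripts with no match in the annotation used were not assigned to genes, so this low level may be partial. KIF2A also shares 8.97% of its exon bases with IPO11 on the same strand, which had 7030 and 7697 counts in control and 5123 and 5084 in deprived cells. How reads of that overlap were divided was not tested.

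Per length, mitotic kinesins held most kinesin RNA. They took 65.6% and 67.0% of all kinesin TPM in control and 64.4% and 60.2% in deprived cells, against 29.6% and 28.4%, and 32.4% and 36.8%, for transport kinesins. Within the mitotic class, the depolymerases (KIF2B, KIF2C, KIF18A and KIF18B) went from 14.6% and 15.6% to 25.9% and 23.9% of kinesin TPM, and the cytokinesis motors from 24.8% and 25.7% to 17.3% and 15.8%. The total of these shares was itself lower in deprived cells, with 817 and 719 kinesin TPM in control and 537 and 606 in deprived cells. TPM does not use the TMM factors, which were 1.15 and 1.10 in control and 0.862 and 0.919 in deprived libraries. How far this enters the lower TPM totals was not tested. Under TMM the median log2 fold change of all kinesins was -0.17. The summed TPM of the depolymerases went from 119.6 and 112 to 139 and 145, a smaller difference than in share. KIF18B had 23.5 TPM in control and 15.2 in deprived cells, whereas its TMM-scaled change was -0.15 and not called. In control cells KIF22 had the highest TPM level (113 ± 15.0 TPM, SD, n = 2 libraries), above KIF23 (78.4 ± 4.71) and KIF20A (74.7 ± 2.33), which overlapped. In deprived cells KIF18A led (81.7 ± 4.05), above KIF22 (62.5 ± 2.61), and KIF20A was at 19.7 ± 0.151 TPM.

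**Figure D3:**
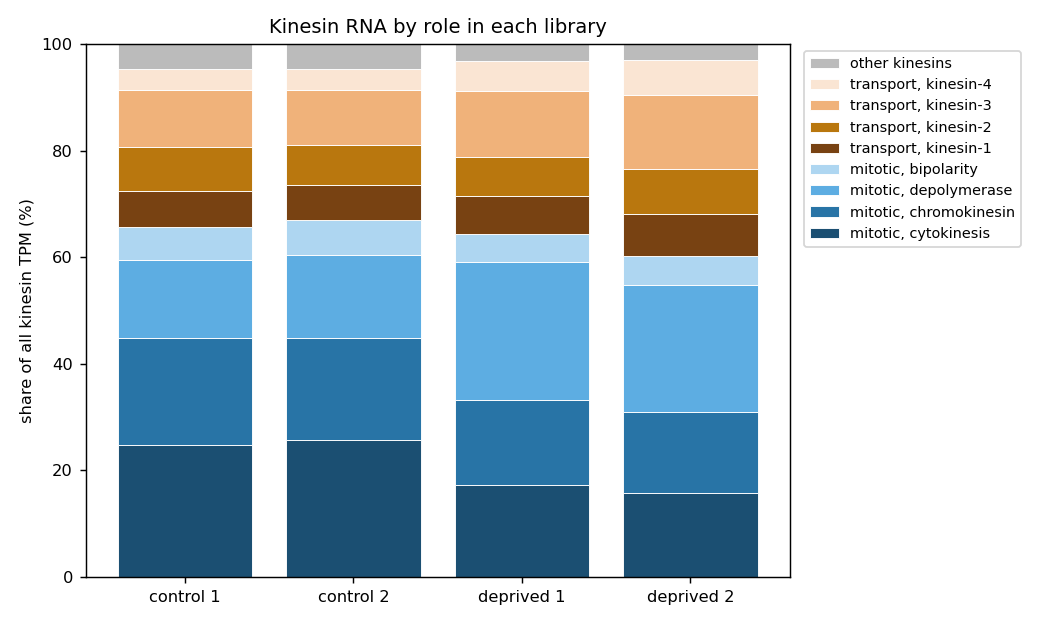
Stacked bars of the share of all kinesin TPM (percent) held by each role group in each of the 4 libraries, blues for mitotic, browns for transport and grey for other kinesins. The mitotic depolymerases go from 14.6% and 15.6% in control to 25.9% and 23.9% in deprived cells, while the cytokinesis band narrows.

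The files give estimated counts per transcript, so the members' isoforms could be followed, with less certainty than gene sums. Of 264 annotated kinesin transcripts, 124 were tested, and 1 was called lower and 0 higher in edgeR's fit over all transcripts, where 1.03% were called. The 1 called was KIF3C-201, a protein-coding transcript of 8 exons (-2.69 ± 0.19, adjusted p = 0.0447). It held 78.7% and 75.7% of KIF3C counts in control and 53.5% and 52.5% in deprived cells, and KIF3C-202 took up most of the rest. For KIF1B, the 21-exon transcript KIF1B-205 went from 66.4% and 57.01% to 85.01% and 79.7% of counts, while the 47-exon KIF1B-201 went from 30.4% and 25.8% to 4.21% and 13.9%. KIF17-203 held 2.78% and 0% of KIF17 counts in control and 41.4% and 45.1% in deprived cells (5 and 0 counts against 133 and 146), with an adjusted p of 0.122. The KIF23 transcripts varied between replicates: KIF23-202 held 77.1% and 47.3% in control and 12.5% and 38.7% in deprived cells, and KIF15-201 held 70.6% and 92.9% in control and 52.4% and 90.9% in deprived cells. With protein-coding transcripts only, the log2 fold changes of KIF23 and KIF15 were larger (-1.18 and -0.98, against -0.61 and -0.73) but were not called (adjusted p = 0.0655 and 0.0751). These shifts of share were not tested.

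**Figure D4:**
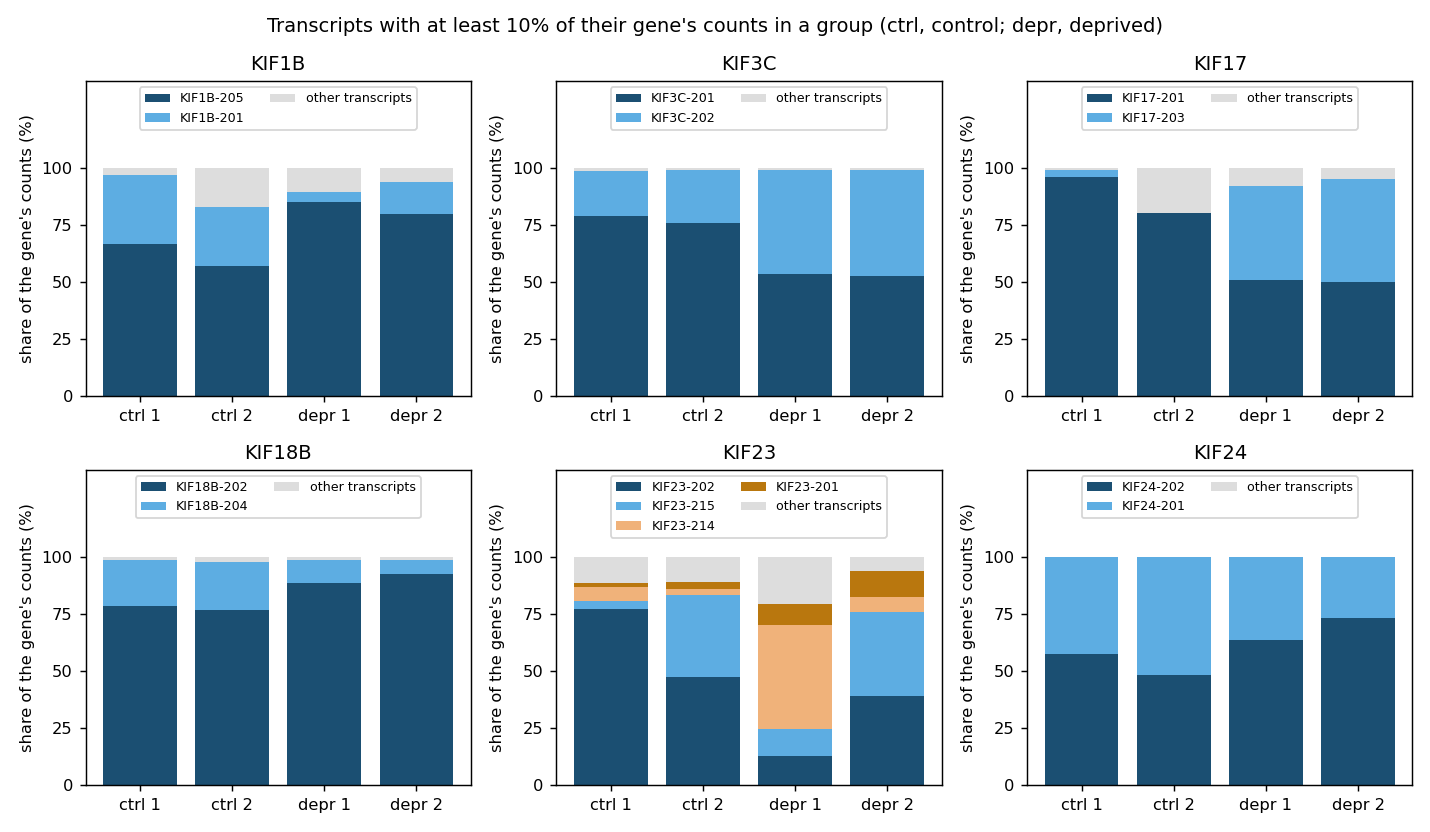
Share of a gene's counts (percent) held by each transcript with at least 10% in either group, for 6 kinesins in the 4 libraries; grey is the sum of all other transcripts. KIF3C and KIF17 shift alike in both deprived libraries, whereas the KIF23 bars differ between replicates.

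Motors that lack the KIF-number name were set beside the kinesins. KIFC1 (HSET), the minus-end motor that focuses spindle poles, fell from 39.3 and 36.7 to 19.2 and 17.0 CPM (-1.07 ± 0.09, adjusted p = 0.000231). CENPE, the kinetochore kinesin, was at 33.3 and 31.6 against 35.7 and 34.1 CPM and was not called (0.11 ± 0.07, adjusted p = 0.2895). KIFC3, a minus-end motor of cell junctions, rose from 256 and 254 to 529.7 and 462 CPM (0.96 ± 0.09), and KIFC2 and STARD9 fell (-0.60 ± 0.08 and -0.99 ± 0.16).

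Of 22 spindle proteins that work with mitotic kinesins, 6 rose and 10 fell (median -0.24), where 25.2% of all tested genes rose and 24.4% fell, so that the share of increases was near that of all genes. With library size only 3 rose and 16 fell, where 17.0% and 34.9% of all genes did. SPAG5 (astrin), MAPRE2, PLK1 and CIT, the citron kinase bound by KIF14, fell, with log2 fold changes of -2.07 ± 0.08, -1.29 ± 0.11, -1.15 ± 0.08 and -0.92 ± 0.08. The partners of single motors differed. Of the passenger complex that KIF20A brings to the midzone, INCENP and AURKB fell (-0.91 ± 0.10 and -1.001 ± 0.112). In the same complex BIRC5 rose (0.51 ± 0.11, adjusted p = 0.0110) and CDCA8 was not called (0.01 ± 0.09, adjusted p = 0.938). PRC1, the partner of KIF4A, fell (-0.81 ± 0.20), while ECT2, which binds centralspindlin, rose (0.71 ± 0.09). RACGAP1, the GTPase-activating subunit of centralspindlin, was at 137 and 151 against 148 and 134 CPM with overlapping groups (adjusted p = 0.794). TPX2, which holds KIF15 and KIF11 on the spindle, was at 184 and 184 against 201 and 177 CPM (adjusted p = 0.742).

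Among cargo adaptors and the opposing motor dynein, increases outnumbered decreases under TMM scaling. Of 24 kinesin light chains, adaptors and activators, 13 rose and 6 fell (median 0.39), where 25.2% of all tested genes rose and 24.4% fell, so that the share of decreases was near that of all genes. With library size only 9 rose and 9 fell, where 17.0% and 34.9% of all genes did. PLEKHM2, which ties KIF5 to lysosomes, rose by 1.196 ± 0.079 and the scaffold SPAG9 (JIP4) by 1.27 ± 0.08, while MAP7, the microtubule protein that recruits KIF5B, fell from 85.6 and 87.0 to 25.8 and 26.8 CPM (-1.72 ± 0.07). Of 24 tested dynein, dynactin and dynein adaptor genes, 14 rose and 6 fell (median 0.46), against the same 25.2% and 24.4% of all genes, and with library size only 10 rose and 7 fell, against 17.0% and 34.9%. Of these, DCTN4, DYNC1LI1 and DYNC1LI2 rose by 1.03 ± 0.08, 1.12 ± 0.08 and 1.29 ± 0.08, and DYNC1H1, the heavy chain, by 1.23 ± 0.11. The 6 decreases included DYNC1I2 (-0.85 ± 0.07), DCTN1 (-0.66 ± 0.07), BICD2 (-1.02 ± 0.11) and HOOK1 (-2.77 ± 0.26).

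Of 14 genes of the MuvB, DREAM, FOXM1 and NF-Y factors, 6 rose and 6 fell (median -0.05), where 25.2% and 24.4% of all tested genes did. With library size only 4 rose and 7 fell, against 17.0% and 34.9%. MYBL2 (B-MYB) fell from 95.7 and 95.3 to 26.8 and 24.3 CPM (-1.90 ± 0.08) and FOXM1 from 51.2 and 50.4 to 25.8 and 26.2 CPM (-0.97 ± 0.07). RBL1 (p107) fell by 1.38 ± 0.08 on the log2 scale, and MYBL1 rose by 1.75 ± 0.07, NFYB by 1.32 ± 0.07 and E2F4 by 1.37 ± 0.09. TFDP1 and RBL2 fell (-1.18 ± 0.07 and -0.52 ± 0.07). Among mitotic kinesins with TTTGAA, KIF14, KIF15, KIF11, KIF23 and KIF4B fell, KIF18A and KIF20B rose, and KIF4A and KIF18B were not called. Of the 3 tested without it, KIF20A and KIF22 fell and KIF2C rose, but KIF20A and KIF2C hold the variant TTTAAA. Thus 5 of 9 with TTTGAA and 2 of 3 without TTTGAA fell. The 5 include the scarce KIF4B, whose call was not firm.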

How the data were processed

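The 4 bulk libraries hold poly-T selected A549 RNA, per the labels' protocols. The submitters' processing notes name HISAT2 2.0.5, featureCounts 1.5.0-p3, DESeq2 1.20.0 and the build hg38. How reads were divided among transcripts, the annotation release and whether counting used strand were not given in the sources used here. Per the file headers, the authors deposited whole-number estimated counts for 229420 transcripts. They were treated as estimated because in 43.7% of 7456 pairs (control replicate 1) in which a transcript covers all exons of another with at least 100 counts, the covering transcript had fewer.

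Counts were summed to genes with GENCODE release 29 (GRCh38), which matched 205306 IDs and at least 98.04% of each library; the 24114 unmatched IDs were left out. Symbols came from a table of current names. Genes were filtered with filterByExpr, scaled by TMM and fitted in R 4.3.3 by the glmQLFit function of edgeR 4.0.16, with a two-sided glmQLFTest (adjusted p under 0.05); the SE is the absolute log2 fold change over the square root of F. DESeq2 1.42.0 and limma 3.58.1 (voom) were alternatives. Replicates differed beyond sampling noise (chi-square per degree of freedom 31.0 and 43.6). Scripts were tested on simulated data. TPM used annotated transcript lengths. Precision is limited by 2 libraries per group.

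Kinesins with a mean of at least 1 CPM are given by library, and of each partner list up to 4 called genes with the smallest p were eligible. CENPE, RACGAP1, TPX2, INCENP, AURKB, BIRC5, CDCA8, PRC1, ECT2, KIFAP3, FOXM1, E2F4, TFDP1 and RBL2 were chosen after their values were seen. So were DYNC1I2, DCTN1, BICD2, HOOK1, low-count kinesins given singly and the overlapping genes. Some genes of the lists are not reported here. The members and lists were chosen with earlier results of these data known. A deposited table of long non-coding RNA transcripts names no kinesin and was not used.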

Additional observations from a re-analysis of the deposited data

How the results depend on the processing

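Under 13 alternatives, 14 of 36 tested kinesins kept their direction and side of the threshold throughout. With library size only, 6 lost their call without changing sign, 5 gained one and 4 changed sign: KIF13B (-0.11), KIF16B (-0.10), KIF5C (-0.17) and KIF5B (-0.27). KIF5B also turned to -0.038 with upper-quartile factors, and KIF5C to -0.35 with protein-coding transcripts only. With library size only 4 kinesins were called higher, 1 of them mitotic and 2 transport, the medians were -0.51 (all), -0.74 (mitotic), -0.11 (transport) and -1.38 (other), and 3 spindle partners rose and 16 fell. Upper-quartile factors gave medians of -0.28, -0.51, 0.12 and -1.15 in the same order. The median of all kinesins, -0.17 as reported, was -0.14 with RLE factors and with DESeq2, -0.20 with at least 50 counts in 2 libraries and -0.23 with protein-coding transcripts only. The mitotic median was -0.50 with no filter, -0.35 with the stricter filter, -0.46 with protein-coding transcripts only, and -0.30 both with KIF2A added and with members of at least 1 CPM, a setting chosen after the data were seen that left 0 other kinesins higher. The median of the other kinesins was -0.69 with the stricter filter, which leaves out low members. Without filter, 1 transport kinesin fell.

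Leaving out each replicate in turn, all-kinesin medians ran from -0.22 to -0.15, mitotic from -0.43 to -0.36 and other from -1.08 to -0.90, and 1 to 2 transport kinesins fell. Replicate numbers are shared between the groups, but nothing says that they mark pairs, and same-numbered deviations correlated at -0.0235. With the replicate number as a block, 10 kinesins rose and 11 fell, and 1 transport kinesin fell instead of 2; the call of KIF13A was lost (-0.29, adjusted p = 0.0628), as were those of KIF13B and KIF4B (adjusted p = 0.111 and 0.118). Apart from scaling and the filters, which change factors and members by construction, the cause of these changes was not tested. Members under 1 CPM rest on few counts, and their depth limits what can be said of them.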
